A study of Mus musculus with 16 samples.

Results

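The Dlk1-Meg3-Dio3 imprinted domain lies on mouse chromosome 12, and 7 named genes of it were examined here, Begain, Dlk1, Meg3, Rtl1, Rian, Mirg and Dio3. They were taken by gene symbol from 55471 genes in the CpG methylation table and 43984 genes in the histone mark table. All 7 symbols stood in the methylation table. Of the 7, 5 stood under their symbol in the histone table, and the other two were found by Ensembl gene ID, Rian (ENSMUSG00000097451) as AC152063.2 and Mirg (ENSMUSG00000097391) as mmu-mir-410. From the outer end of Begain to the outer end of Dio3 the stretch covers chr12:109032187-110281097 on mm10, which is 1.25 Mb.

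The cells were clonal mouse induced pluripotent stem cell (iPSC) lines, PTC11 and PTC12 from kidney proximal tubule cells (PTC) and TTF1 and TTF4 from tail tip fibroblasts (TTF). Both kinds of founder cell came from young adult littermates of 1 genotype, which combines the SLC34a1-GCE and tdTomato alleles with rtTAROSA (neo-in) and OKMS-250, so that all 4 lines carry the same doxycycline-inducible Oct4, Klf4, c-Myc and Sox2 cassette. In PTC the neo cassette that blocks rtTA was removed by tamoxifen-activated Cre under the SLC34a1 promoter, and the cells were sorted for tdTomato and GFP. In TTF it was removed by Cre from a non-integrating episomal plasmid, so the route of Cre delivery and the origin cannot be told apart. The lines no longer needed doxycycline, had been cultured on mouse embryonic fibroblast feeders with LIF, and were profiled at early passage. Each line is 1 clone with 1 library each for CpG methylation, H3K4me3 and H3K36me3, so the line is the replicate (n = 2 lines per origin). H3K27me3 is the exception, with PTC11 named on both of its PTC samples and none from PTC12. Values given as sets of 4 stand in the order PTC11, PTC12, TTF1 and TTF4 throughout. The study asked whether iPSCs keep epigenetic marks of the cell they came from.

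Genomic imprinting leaves some genes active on the copy from 1 parent only. In the Dlk1-Meg3-Dio3 domain the protein-coding genes Dlk1, Rtl1 and Dio3 are expressed from the paternal copy, and the non-coding RNAs Meg3 (also called Gtl2), Rian and Mirg, with the microRNAs and snoRNAs processed from their long transcript, from the maternal copy. The copies are set apart by DNA methylation on the paternal copy, at the intergenic DMR (differentially methylated region) between Dlk1 and Meg3 and at the Meg3 promoter. In mouse iPSCs this domain is known for clones in which the maternal RNAs are silent and the Meg3 region is methylated on both copies, and such clones have poor developmental potential.

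The promoters of Meg3, Dlk1 and Dio3 are shown because the results below turn on their methylation and H3K4me3. Each runs from 250 bases before to 50 bases after the RefSeq start on GRCm38.p6, the primary sequence of mm10, on the plus strand, with every CpG in capitals. The windows are chr12:109540746-109541045 for Meg3, chr12:109452573-109452872 for Dlk1 and chr12:110278980-110279279 for Dio3.
Meg3: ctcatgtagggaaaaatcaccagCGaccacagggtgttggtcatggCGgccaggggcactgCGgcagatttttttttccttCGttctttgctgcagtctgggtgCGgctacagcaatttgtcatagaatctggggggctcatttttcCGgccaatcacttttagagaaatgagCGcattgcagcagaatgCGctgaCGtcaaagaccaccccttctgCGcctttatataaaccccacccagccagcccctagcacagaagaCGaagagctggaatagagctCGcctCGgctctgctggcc
Dlk1: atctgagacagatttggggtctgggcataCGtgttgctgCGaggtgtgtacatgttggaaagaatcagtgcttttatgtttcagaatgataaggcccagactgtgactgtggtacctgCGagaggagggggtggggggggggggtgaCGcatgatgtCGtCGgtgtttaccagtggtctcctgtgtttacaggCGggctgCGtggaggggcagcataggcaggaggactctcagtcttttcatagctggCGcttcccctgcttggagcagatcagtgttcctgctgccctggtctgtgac
Dio3: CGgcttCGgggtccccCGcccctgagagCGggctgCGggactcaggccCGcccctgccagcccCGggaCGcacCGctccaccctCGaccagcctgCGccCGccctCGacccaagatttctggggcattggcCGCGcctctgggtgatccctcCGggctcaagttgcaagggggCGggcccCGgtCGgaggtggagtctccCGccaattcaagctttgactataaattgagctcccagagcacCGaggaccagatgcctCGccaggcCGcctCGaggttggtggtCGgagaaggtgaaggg

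The Meg3 window held 13 CpGs, the Dlk1 window 9 and the Dio3 window 25, against a median of 7 (quartiles 3 and 20) over 32851 mouse promoter windows of the same length. The hexamer TGCCGC, which the imprint protector ZFP57 binds when it is methylated, was searched on both strands. It occurred 1 time in the Meg3 window and in neither of the other two, and 11.6% of all windows held it. RefSeq also gives a later Meg3 start, whose window (chr12:109545148-109545447) is not shown and held 1 CpG and no such hexamer. In the wider stretch of 1000 bp to each side of the listed start the hexamer occurred 3 times at Dio3, 1 time each at Meg3, Dlk1 and Mirg, and 0 times at the other three genes. That stretch, which the methylation values cover, held 229 CpGs at Dio3, 122 at Begain, 108 at Dlk1 and 69 at Meg3. Rtl1 and Mirg had 24 each and Rian 15, near the median of 23 over 2475 genes of chromosome 12. The gene bodies were placed at chr12:109452823-109463336 for Dlk1, chr12:109541001-109571726 for Meg3 and chr12:110279068-110281097 for Dio3, all on the plus strand. Begain (chr12:109032187-109068217) and Rtl1 (chr12:109589193-109600330) lie on the minus strand. Rian (chr12:109603808-109661716) and Mirg (chr12:109729764-109749460) follow Meg3 on the plus strand. GENCODE M21 classes Begain, Dlk1, Rtl1 and Dio3 as protein coding, Meg3 and Mirg as lincRNA and Rian as a processed transcript. For 6 of the 7 genes the listed start falls in an exon of the gene, and for Rian it lies before the annotated start at 109603940.

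The methylation values are fractions of methylated CpGs from nanopore reads, averaged over sliding windows around the start, and run from 0 to 1. The lines differed over the whole genome, with a mean fraction of 0.372 and 0.482 in PTC11 and PTC12, and 0.379 and 0.649 in TTF1 and TTF4. A gene was therefore also given its percentile among all genes with a value in the same line, and origins were compared on the fraction minus the line mean. The study's methods give 1 number of sequenced reads for all ChIP libraries, but neither table gives the reads or coverage behind a value, so that depth is unknown and counting error could not be estimated. The label iPSC was checked against the H3K4me3 of marker genes. Of 12 pluripotency markers, H3K4me3 was present at 11, 11, 11 and 8 in PTC11, PTC12, TTF1 and TTF4, with Pou5f1 between 4.24 and 5.56 RPKM. Esrrb had none in any line. Zfp42, Dppa4 and Dppa5a had none in TTF4, where their methylated fractions were 0.803, 0.759 and 0.771. Of 10 proximal tubule markers, H3K4me3 was present at 1, 4, 3 and 2. Of 12 fibroblast markers, which feeder cells would also carry, H3K4me3 was present at 3, 8, 8 and 6. Their summed H3K4me3 was 9.77, 30.1, 31.5 and 21.8 RPKM, and Col3a1, Dcn, Lum and Postn had none in any line. Over all 43984 genes listed, H3K4me3 was present at 15114, 19990, 19448 and 15368, so PTC12 and TTF1 had more genes with the mark in general. A mixture of cells with and without a mark and a weaker mark in every cell cannot be told apart in these bulk libraries.

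Among the 7 genes, CpG methylation was high at the starts from Meg3 to Mirg and lower at Begain, Dlk1 and Dio3. At Meg3, the non-coding RNA whose promoter is an imprinted DMR, the fraction was 0.740 and 0.904 in PTC11 and PTC12, and 0.685 and 0.903 in TTF1 and TTF4. The origins overlapped, and PTC12 and TTF4 lay above PTC11 and TTF1. Meg3 stood at percentile 94.0, 95.6, 86.0 and 79.1 of its line, above the upper quartile of all genes in each line. Rtl1, a retrotransposon-derived gene needed in the placenta, did the same, with fractions of 0.649, 0.794, 0.626 and 0.970 and percentiles from 80.2 to 93.0. Thus 2 of the 7 genes exceeded the upper quartile in every line, where 3% of all 50657 genes with 4 values did so.

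Rian, the host RNA of many snoRNAs, had fractions of 0.593 and 0.588 in PTC11 and PTC12, and 0.736 and 0.865 in TTF1 and TTF4. Here the TTF values exceeded both PTC values, and the percentiles ranged from 55.9 in PTC12 to 90.0 in TTF1. Mirg, the microRNA host at the far end of the non-coding cluster, had 0.643, 0.881, 0.485 and 0.891, with TTF1 lowest. All 4 genes of the Meg3 to Mirg stretch were above the median of their own line in each line. The fractions of Rtl1, Rian and Mirg rest on fewer CpGs than that of Meg3.

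The paternally expressed genes at the ends were weakly methylated in comparison. Dlk1, a membrane ligand related to those of Notch, had 0.127 and 0.344 in PTC11 and PTC12, and 0.282 and 0.546 in TTF1 and TTF4, at percentiles from 23.3 to 40.3. Dio3, the deiodinase that inactivates thyroid hormone, had 0.110, 0.0881, 0.0599 and 0.263, at percentiles from 13.5 to 21.3, which was the lowest of the 7 genes in each line. Begain, a synaptic scaffold-associated gene at the edge of the domain, had 0.111, 0.255, 0.267 and 0.403, with PTC11 lowest and the TTF lines again above. As deposited, the TTF values exceeded the PTC values at these 2 of the 7 genes, Begain and Rian, and at 20.5% of all genes. In each line the fractions of Begain, Dlk1 and Dio3 lay below those of the other four. TTF4 had the highest deposited fraction at 6 of the 7 genes, as it did at 75.9% of all genes, and after the line mean was subtracted at 1 of the 7, against 26% of all genes.

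**Figure D1:**
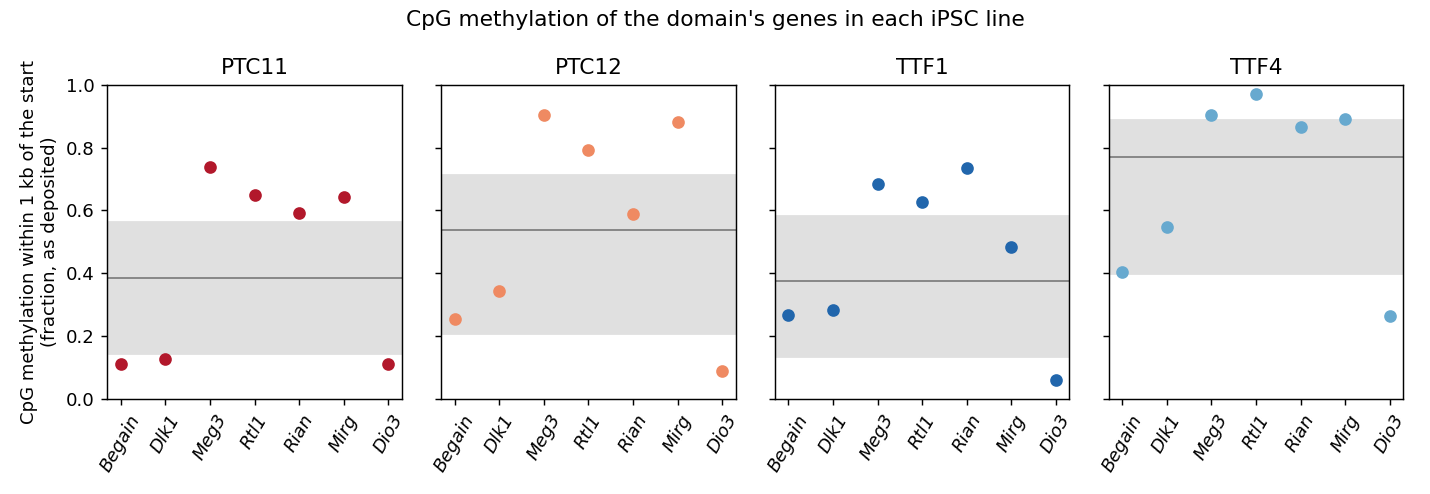
CpG methylation (fraction of methylated CpGs within 1 kb of the start, as deposited) of the 7 genes, in order along the chromosome, with 1 panel per iPSC line. Points are single libraries, the grey band spans the quartiles of all genes in that line and the line in it is their median. Meg3 and Rtl1 lie above the band in all 4 panels, and Begain, Dlk1 and Dio3 lie below the median.

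The methylation table lists 113 other genes in the domain, mostly microRNAs, snoRNAs and unnamed loci. Their median fraction was 0.631 and 0.728 in PTC11 and PTC12, and 0.612 and 0.871 in TTF1 and TTF4, above the medians of all genes in those lines, 0.385, 0.539, 0.374 and 0.770. Many of these loci are processed from longer transcripts, so their listed starts need not be promoters, while the medians of all genes include promoters. Windows of neighbouring starts overlap, so these loci are not independent measurements. The 5 starts within Meg3 had medians of 0.664, 0.823, 0.635 and 0.866. The 8 starts within Rtl1 had medians of 0.784, 0.733, 0.700 and 0.937. Between them, the 8 starts from the end of Meg3 to Rtl1 had lower medians in the less methylated lines, 0.431 (PTC11) and 0.490 (TTF1), than in the more methylated ones, 0.667 (PTC12) and 0.917 (TTF4). The 11 starts from Mirg to Dio3os had medians of 0.566, 0.654, 0.431 and 0.814, above those of all genes. The 4 starts before Dlk1, Begain included, had medians of 0.343, 0.465, 0.523 and 0.901. The lowest block was at the Dio3 end, where Dio3, Dio3os and Mir1247 had medians of 0.0926, 0.0418, 0.0610 and 0.136. The intergenic DMR has no start of its own and was not analysed here. The nearest start towards it, Gm27528 at -10.1 kb from the Meg3 start, had 0.694, 0.872, 0.692 and 0.871. The other entry under this symbol, at -8.56 kb, had 0.877, 0.729, 0.611 and 0.819, with PTC11 highest.

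**Figure D2:**
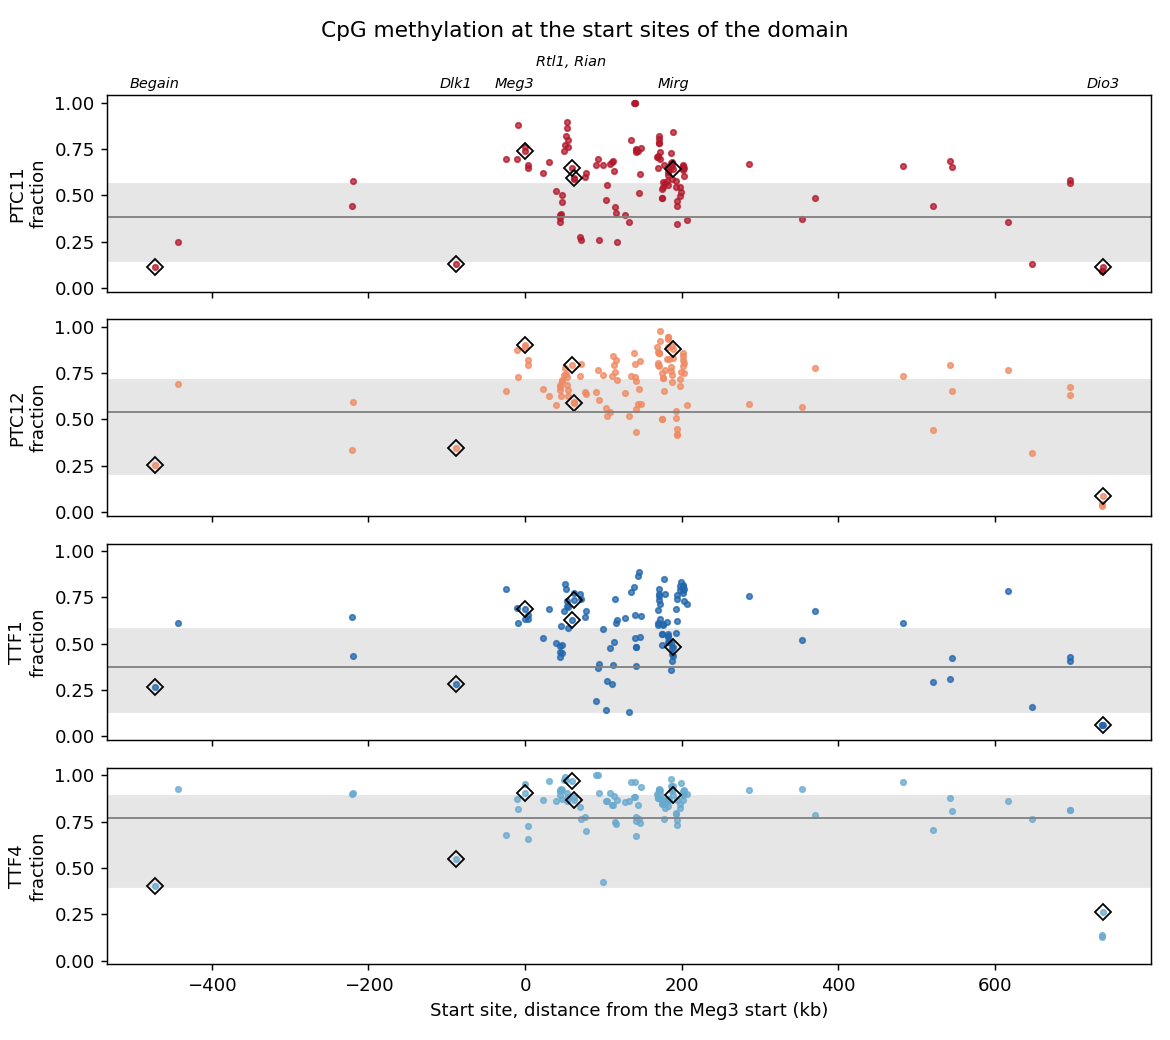
CpG methylation (fraction, as deposited) at every start of the domain against its distance from the Meg3 start in kb, with 1 panel per line. Dots are single genes, open diamonds the 7 named genes, the grey band the quartiles of all genes in the line and the line in it their median. The starts from Meg3 to Mirg lie mostly above the median, and the 3 starts at the Dio3 end lie near the bottom in each line.

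RefSeq places 58 microRNA hairpins in the domain, and all 58 had a row in the methylation table. Their median fraction was 0.622 and 0.731 in PTC11 and PTC12, and 0.676 and 0.878 in TTF1 and TTF4, with 57 of them measured in TTF1. In each line Mir1247 was the lowest of them, with 0.0921, 0.0418, 0.0628 and 0.126, and the lowest of the other 57 was 0.258, 0.416, 0.358 and 0.701. Of the 58 hairpins 7 lie inside Rtl1, 6 of them on the strand opposite to it, and the microRNAs miR-431, miR-433, miR-127, miR-434 and miR-136 from that strand are fully complementary to Rtl1 RNA and can direct its cleavage. One mature arm of each of these is shown with miR-1247-5p from the weakly methylated Dio3 end, the seed (bases 2 to 8) in capitals.
miR-431-5p: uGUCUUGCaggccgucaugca
miR-433-3p: aUCAUGAUgggcuccucggugu
miR-127-3p: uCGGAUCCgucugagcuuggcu
miR-434-3p: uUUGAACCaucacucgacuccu
miR-136-5p: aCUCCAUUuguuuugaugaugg
miR-1247-5p: aCCCGUCCcguucguccccgga
None of these 6 seeds was shared with another mature microRNA of the domain, in which 113 mature names had 104 seeds. Seeds were shared elsewhere in the cluster between Rian and Mirg, for example by both members of each of the following pairs, which lie among starts with a median fraction of 0.676, 0.787, 0.599 and 0.876.
miR-379-3p: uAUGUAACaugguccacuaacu
miR-411-3p: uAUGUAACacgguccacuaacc
miR-379-5p: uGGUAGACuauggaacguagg
miR-1193-5p: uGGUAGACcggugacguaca

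At the microRNAs inside Rtl1 the fractions in PTC11, PTC12, TTF1 and TTF4 were 0.822, 0.746, 0.793 and 0.977 for Mir127, and 0.769, 0.776, 0.821 and 0.991 for Mir433. Both were high in each line, with TTF4 highest. Mir136, nearer to the Rtl1 start, had 0.799, 0.628, 0.698 and 0.884, with PTC12 lowest.

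Between origins, none of the 7 genes passed the test for CpG methylation. In limma on the fraction minus the line mean, the adjusted p over all 50657 genes was 1.00 for each of the 7, and none had an unadjusted p under 0.05. Over all genes 0.00395% were called at an adjusted p under 0.05 and 4.72% had an unadjusted p under 0.05. The TTF minus PTC difference at Meg3 was -0.115 (SE 0.121, 95% interval -0.358 to 0.128). Without the subtraction of line means it was -0.0280. At Mirg it was -0.161 (SE 0.141), at Rian 0.123 (SE 0.147) and at Dlk1 0.0914 (SE 0.140). With 1 line left out in turn it ranged from -0.230 to -0.0933 at Mirg, from 0.0518 to 0.193 at Rian and from 0.0382 to 0.145 at Dlk1. Rtl1, at -0.0108, Dio3, at -0.0248, and Begain, at 0.0647, differed less. After centring, the origins did not overlap at 3 of the 7 genes, against 27.8% of all genes. Dlk1 was higher and Meg3 and Mirg were lower in both TTF lines. As deposited, the origins overlapped at these 3 genes. A fraction of 1 in TTF4 becomes 0.351 after centring, under the 0.368 and 0.423 of Meg3 in PTC11 and PTC12. TTF4 therefore had to lie below both PTC lines at Meg3. An exact permutation test over lines cannot go below a two-sided p of 0.33 with 2 lines against 2.

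Of the 112 other genes of the domain with a value in every line, 0 passed the limma test and 0 had an unadjusted p under 0.05. Their median difference was -0.0257, beside -0.0100 over all genes. The origins did not overlap after centring at 42 of them (37.5%, against 27.8% of all genes). Both TTF lines were above at 15 and below at 27, and many of these loci share windows. After centring TTF4 cannot exceed 0.351, which limits the count above at strongly methylated starts. Among the 42, Mir453 in the Mirg block had 0.343 and 0.419 in PTC11 and PTC12, and 0.622 and 0.865 in TTF1 and TTF4. Its centred difference was 0.275 (SE 0.157). Mir544, just before Mirg, had 0.842, 0.831, 0.436 and 0.941, a centred difference of -0.235 (SE 0.134). The limma adjusted p was 1.00 for both.

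**Figure D3:**
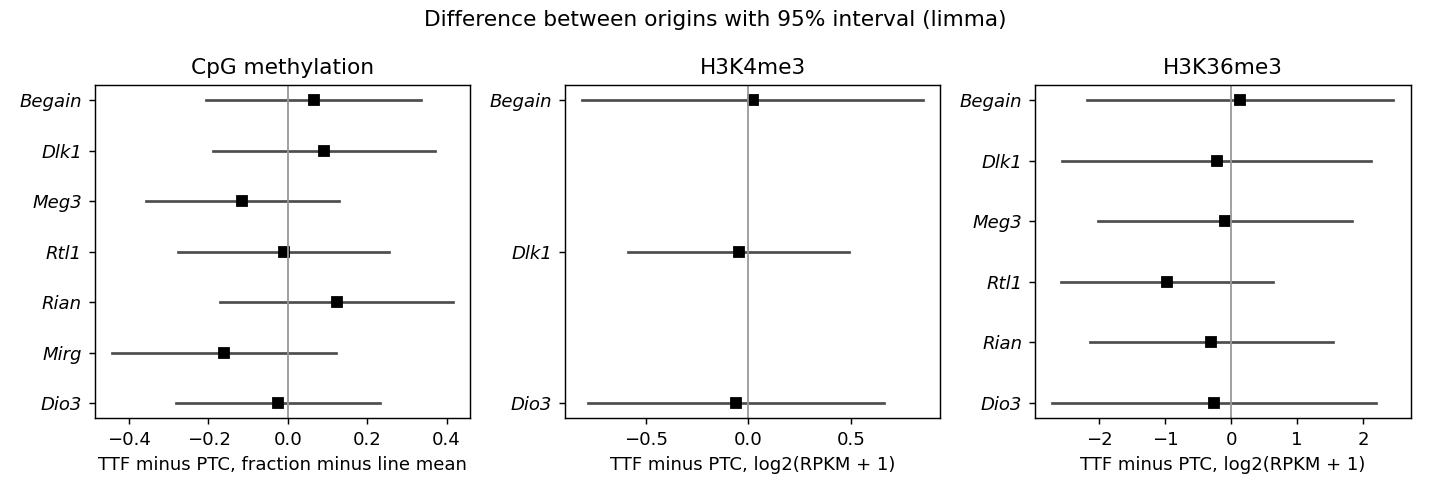
TTF minus PTC difference of each gene with its 95% interval from limma, for CpG methylation (fraction minus line mean), H3K4me3 and H3K36me3 (both log2(RPKM + 1)); squares are estimates from 2 lines per origin. Every interval includes 0, and only genes with a value in all 4 lines appear in a panel.

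H3K4me3, the mark of active gene starts, was present in every line at 3 of the 7 genes, Begain, Dlk1 and Dio3, as it was at 31.2% of all genes listed. The values are RPKM (reads scaled to peak length and library size, less the input) averaged over peaks at the start, and genes where no peak was kept have none. Begain had 3.83 and 5.02 RPKM in PTC11 and PTC12, and 5.77 and 3.42 RPKM in TTF1 and TTF4, on either side of the line medians of 3.69, 4.59, 5.01 and 3.65. Dlk1 had 2.88, 3.23, 3.34 and 2.55, below the median in each line. Dio3 had 3.16, 4.96, 3.99 and 3.57. The peak values of Dio3 equalled those listed for Mir1247 in 2 of the 4 lines, so in these lines both genes were given the same peaks. The origins overlapped at all 3 genes, and they failed to overlap at 8.21% of the 13709 genes tested.

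Rtl1, Rian and Mirg had no H3K4me3 value in any line. Meg3 had no value in PTC11, and it had 1.72 RPKM in PTC12, with 3.31 and 3.33 RPKM in TTF1 and TTF4. Its percentile was 8.26 in PTC12, 22.3 in TTF1 and 33.4 in TTF4. Ranked only among genes with H3K4me3 in every line, it was at percentile 1.68, 4.53 and 28.2. Both TTF values lay above the 1 PTC value. A value in all lines but PTC11 was found at 5.48% of the 21758 genes with H3K4me3 in any line. With the missing value set to 0 RPKM, the TTF minus PTC difference at Meg3 was 1.39 on the log2(RPKM + 1) scale (SE 0.996), with a limma adjusted p of 1. Of the 12 fibroblast markers, Pdgfra, Prrx1, Col1a1 and Col1a2 also had H3K4me3 in PTC12, TTF1 and TTF4 and not in PTC11. Fn1 and Thy1 had it in all lines, Twist2 in all but TTF4, Pdgfrb in PTC12 and TTF1, and the other four in none. Outside the fibroblast markers, the listed genes with the pattern of Meg3 were Sgce and Peg10, of other imprinted DMRs, and the flanking gene Cyp46a1. The part of fibroblast cells in the Meg3 value was not tested.

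Outside PTC11, Meg3 combined this H3K4me3 with a methylated start. Per the study's methods, the H3K4me3 window reaches further to each side of the start than the 1000 bp of the methylation window. The peak and the methylated CpGs therefore need not lie at the same place. Of 476 genes, listed in both tables, whose fraction was at or above 0.685, the lowest at Meg3, in all 4 lines, 3.78% had H3K4me3 in at least 3 lines, and Meg3 was 1 of these 18. Over the 33685 genes with methylation in every line that are also listed in the histone table the share was 43.5%. The threshold was set from Meg3 itself, so these shares are a description. Within these bulk values, methylation and H3K4me3 at different places near the start, on different copies or in different cells cannot be told apart.

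H3K4me3 was less frequent at the other genes of the domain than over all genes. Of the 94 other genes of the domain in the histone mark table, 13 had a value in any line, beside 21758 of all 43984 genes. By line, 3 and 7 had one in PTC11 and PTC12, and 8 and 3 in TTF1 and TTF4. Over all 43984 genes, 15114 and 19990 had one in PTC11 and PTC12, and 19448 and 15368 in TTF1 and TTF4. Many of the 94 are microRNAs and snoRNAs processed from longer transcripts, so their listed starts need not be promoters. In TTF1 alone, values stood at Mir1906-1 (1.66 RPKM), Mir770 (2.45), Mir665 (1.41) and Mir431 (2.33), from 3.54 to 49.4 kb after the Meg3 start. In PTC12 alone, Mir127 and Mir434 shared a value of 2.34 RPKM, and Mir3072 had 1.95. At the Dio3 end Mir1247 had 3.54, 4.96, 5.12 and 3.57 RPKM, a value in every line.

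**Figure D4:**
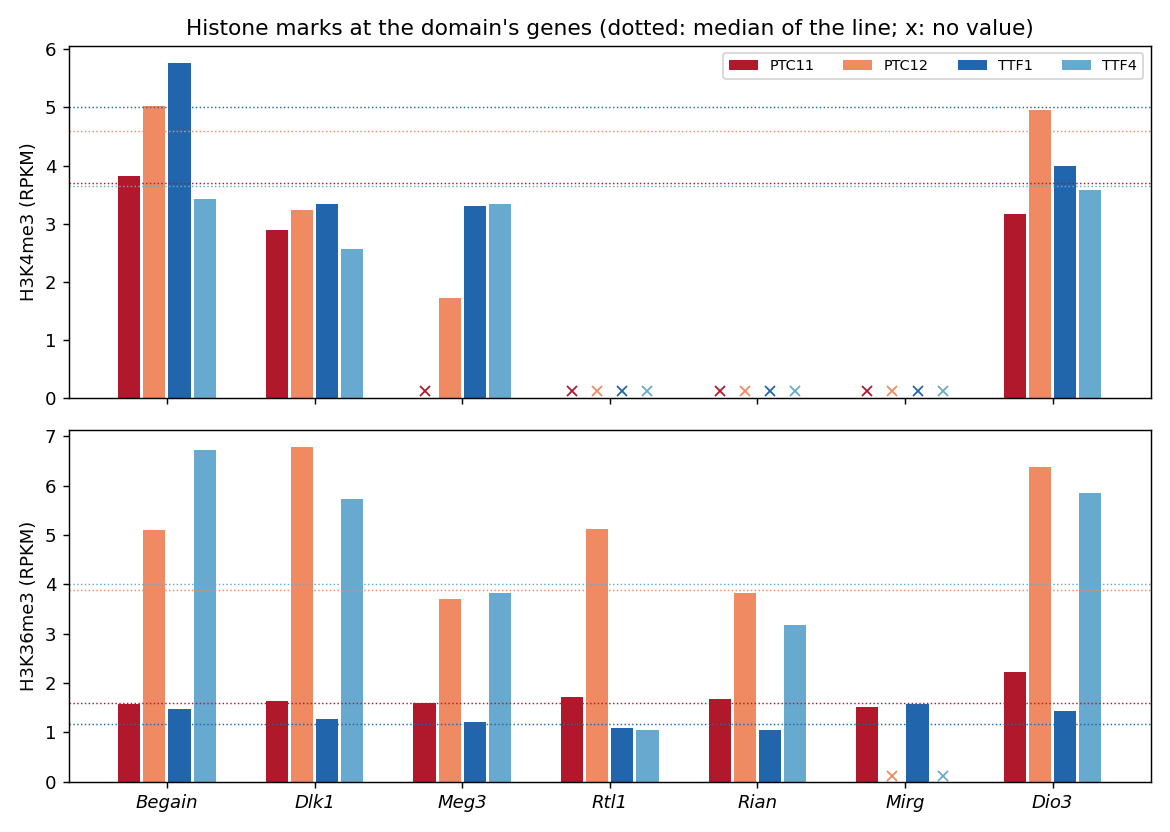
H3K4me3 and H3K36me3 (RPKM) at the 7 genes, with 1 bar per iPSC line. Dotted lines are the median of all genes with a value in the line of that colour, and a cross marks a gene without a value. Rtl1, Rian and Mirg have crosses in all lines for H3K4me3, and H3K36me3 is higher in PTC12 and TTF4 than in the other two lines at most genes, as are the medians.

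H3K36me3, which follows elongating RNA polymerase through gene bodies, had a value in every line at 6 of the 7 genes, against 38.7% of all genes listed. Its level differed between lines over the whole genome, with medians of 1.60 and 3.88 RPKM in PTC11 and PTC12, and 1.18 and 4.01 RPKM in TTF1 and TTF4, and 5 of the 6 genes with 4 values were likewise higher in PTC12 and TTF4 than in PTC11 and TTF1. Dlk1 had 1.64, 6.79, 1.27 and 5.72 RPKM, above the median in each line. Dio3 had 2.23, 6.39, 1.42 and 5.85, at percentiles from 74.1 to 88.9, the narrowest range among the coding genes. These values equalled those listed for Mir1247 in 3 of the 4 lines, so they rest on shared peaks there. Begain had 1.57, 5.11, 1.47 and 6.72.

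Among the non-coding genes, Meg3 had 1.60 and 3.70 RPKM in PTC11 and PTC12, and 1.21 and 3.83 RPKM in TTF1 and TTF4, at percentiles from 44.8 to 53.9. Rian had 1.68, 3.83, 1.05 and 3.18, with its lowest percentile, 26.4, in TTF4. Mirg had 1.52 in PTC11 and 1.58 in TTF1 and no value in the other two lines. Its gene body starts 5217 bp later in the histone table than in the methylation table, so its marks were measured over different starts. At Meg3 and Rian the origins overlapped, and the lines with low medians, PTC11 and TTF1, were low.

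Rtl1 departed from that order. It had 1.71 and 5.12 RPKM in PTC11 and PTC12, and 1.10 and 1.05 RPKM in TTF1 and TTF4, so that TTF4, a line with high H3K36me3 elsewhere, was the lowest. Its percentile was 60.7 and 76.0 in PTC11 and PTC12, and 41.8 and 4.19 in TTF1 and TTF4. Its TTF values were both under its PTC values, which among the 6 genes tested held for Rtl1 only and over all 17039 genes in either direction for 3.5%. The difference was -0.97 on the log2(RPKM + 1) scale (SE 0.82, 95% interval -2.58 to 0.63), with a limma adjusted p of 1. With the PTC12 line left out it was -0.39, and with PTC11 left out -1.56. With all 4 lines and quantile normalization it was -0.67 (SE 0.33), with a limma p of 0.101 unadjusted and 0.998 adjusted. In TTF4, the line with the highest mean methylation, Rtl1 also had its highest fraction, 0.970.

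No gene passed the test between origins for either histone mark. For H3K4me3, limma called 0 of the 3 genes tested, with differences of 0.02 at Begain, -0.05 at Dlk1 and -0.06 at Dio3 on the log2(RPKM + 1) scale, and 0.481% of all 13709 genes. For H3K36me3 it called 0 of 6, with differences at the other five from -0.30 at Rian to 0.14 at Begain, and 0.112% of all 17039 genes. None of them had an unadjusted p under 0.05, against 0.977% and 0.681% of all genes. The intervals were wide, from -0.81 to 0.85 at Begain for H3K4me3 and from -2.02 to 1.83 at Meg3 for H3K36me3. Unlike methylation, the histone values were not adjusted for the level of each line, so these intervals include differences in level between lines. The SE at Meg3 for H3K36me3 was 0.98 as tested and 0.18 with quantile normalization. H3K27me3, the mark of repressed genes, had no value at any of the 7 genes in its 4 libraries, which list between 11 and 144 genes with a value.

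Beside 16 genes of other imprinted DMRs, Meg3 was among the most methylated around its start. The values cover the listed starts, and whether the DMR of each gene lies there was not checked. Rasgrf1 (0.0132 to 0.0476) and Zdbf2 (0.0974 to 0.171), for example, were low in every line. Such starts lower the median set beside Meg3. Its fraction exceeded those of 15, 14, 15 and 11 of the 16 in PTC11, PTC12, TTF1 and TTF4. The medians of the 16 genes were 0.366, 0.418, 0.382 and 0.795. The genes above Meg3 were Peg13 in PTC11, Mest and Peg13 in PTC12, H19 in TTF1, and H19, Kcnq1ot1, Nnat, Peg13 and Snrpn in TTF4. H19, like Meg3 a non-coding RNA with a DMR methylated on the paternal copy, had 0.4995 and 0.734 in PTC11 and PTC12, and 0.777 and 0.974 in TTF1 and TTF4. Meg3 varied over lines by 0.219 between its lowest and highest fraction, and H19 by 0.474. Between origins limma called 0 of the 16, and 2 had an unadjusted p under 0.05, against 4.72% of all genes.

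**Figure D5:**
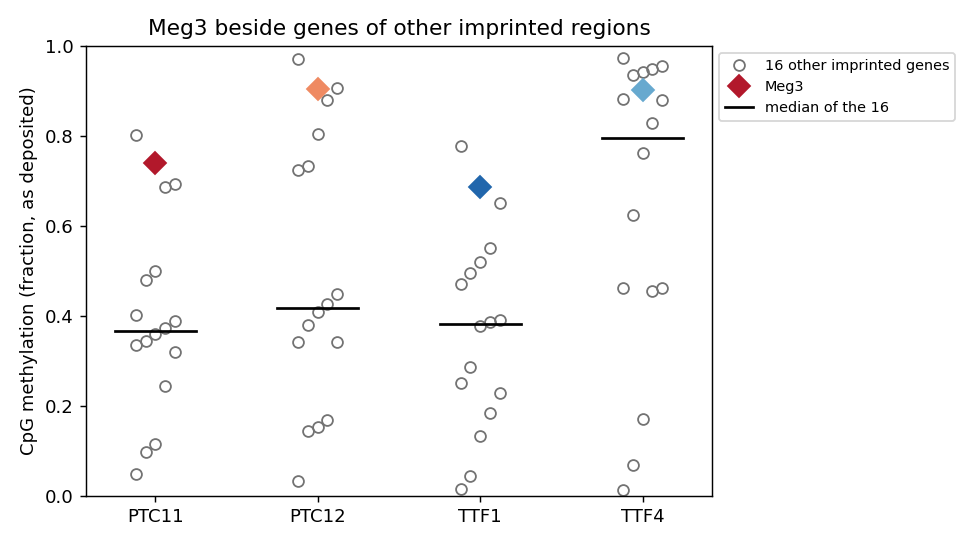
CpG methylation (fraction, as deposited) around the starts of Meg3 (filled diamonds) and of 16 genes of other imprinted DMRs (open circles) in each line. Circles are spread sideways for sight only, and a bar marks the median of the 16. Meg3 exceeds the median in all 4 lines, by 0.108 in TTF4 and by 0.304 to 0.486 in the other lines.

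Most flanking genes outside the domain had little methylation. The 10 flanking genes on the Begain side, among them Yy1 and Evl, had medians of 0.0898, 0.101, 0.0985 and 0.254 in PTC11, PTC12, TTF1 and TTF4. The 10 beyond Dio3, among them Dync1h1 and Hsp90aa1, had 0.0336, 0.0575, 0.0653 and 0.128. The highest values were at Eml1 on the Begain side, with 0.806, 0.660, 0.352 and 0.867, and Hsp90aa1, with 0.769 in TTF4 and at most 0.268 in the other lines. None of these was called between origins by limma for methylation, H3K4me3 or H3K36me3, and none had an unadjusted p under 0.05. Of 16 regulators of imprints, such as Trim28, the corepressor that ZFP57 recruits, and Dnmt1, the maintenance methyltransferase, limma called none either, and 1 had an unadjusted p under 0.05, for H3K4me3. For that mark 9 of the 16 were tested, and 0.977% of all genes tested had such a p. Zfp57 itself had a fraction of 0.351 and 0.330 in PTC11 and PTC12, and 0.175 and 0.933 in TTF1 and TTF4, with TTF4 apart from the other lines, and no H3K4me3 value in any line. Its H3K36me3 was high, at 2.75 RPKM in PTC11, 7.17 in PTC12 and 8.56 in TTF4, or percentiles 96.7, 92.8 and 98.4, with no value in TTF1. The germline factor Dppa3, which protects imprints in the early embryo, had 0.113, 0.359, 0.0742 and 0.856, again highest in TTF4. Its H3K4me3 was 3.79, 2.83 and 3.24 RPKM in PTC11, PTC12 and TTF1, with no value in TTF4.

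Genes elsewhere in the genome had patterns over the lines like those of the domain's genes. The genes nearest to Meg3 in centred methylation, by Euclidean distance over the 4 lines, were Gm48388 (0.0187), Gm6942 (0.0242) and Gm7562 (0.0264), and 152 genes lay within a distance of 0.1. Nearest to Dlk1 were Gm2518 (0.0231), Gm30346 (0.0274) and Syde1 (0.0288), with 70 genes within 0.1. Nearest to Dio3 were Dact1 (0.0133), Spata2l (0.0171) and Srp19 (0.0182), with 1617 within 0.1.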

How the data were processed

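The CpG methylation values are fractions that the authors deposited per gene, from 1 nanopore sample per line. Per the study's methods, bases were called with Guppy, reads aligned to mm10 with Minimap2, CpGs called with Nanopolish, and the fraction averaged over sliding windows within 1000 bp of the start. The histone values are RPKM the authors deposited per gene and library (16 libraries with methylation included): reads aligned to mm10 with Bowtie2 (2.1.0, as the submitters' processing notes give it), peaks called with MACS2 (2.0.10) against input, reads per peak counted with bedtools (2.17.0), input RPKM subtracted, and peaks averaged at the start or, for H3K36me3, over the gene body. Genes without a retained peak have no value, so peak calling decides which genes can be compared. Both tables lack coverage, so precision came from the spread between lines; the study's methods call the methylation samples of an origin independent animal replicates, while the labels do not tie lines to animals, and p-values measure the spread between clones.

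Groups followed the sample labels. Genes measured in all 4 lines were tested with limma (3.58.1 in R 4.3.3; eBayes with a variance trend) on log2(RPKM + 1), which understates changes of low values, or on the fraction minus the line mean, adjusted by Benjamini-Hochberg over all genes, with a threshold of 0.05. The step was run on simulated data, where recovery of known changes was required only at a spread far below that of these data. No recovery was required at the spread of these data, so the run does not measure the power of the test here. The 7 genes and all gene lists were chosen with earlier results of these data known. Named genes are the 7, the listed markers and regulators, other genes of the domain whose origins do not overlap or where 1 line differs most, and the 3 nearest genes to Meg3, Dlk1 and Dio3; the microRNAs with H3K4me3 or inside Rtl1, Gm27528 and the other genes of the Dio3 end were chosen after their values were seen. Of the methylation table's genes 99.4% had an ID in GENCODE M21, and 99.4% of these had the same coordinates. Sequences are from RefSeq (GRCm38.p6), which gave promoters for 6 of the 7 genes. Alternatives varied normalization, pseudocount, filters, centring, the variance trend, missing values and each line left out. Other steps used Python 3.11.15 with pandas 2.3.3, numpy 2.4.6 and matplotlib 3.10.9.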

Additional observations from a re-analysis of the deposited data

How the results depend on the processing

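No member of the domain was called under any alternative run. The smallest limma adjusted p of a member was 0.784 for methylation, 0.987 for H3K4me3 and 0.871 for H3K36me3. Apart from the fits that leave out 1 line, direction was kept in 32 of 35 methylation, 14 of 15 H3K4me3 and 29 of 30 H3K36me3 values. The exceptions were Rtl1 methylation with quantile normalization (0.0119) and without centring (0.0763), Dio3 methylation without centring (0.0623), Begain H3K4me3 with quantile normalization (-0.0491) and Meg3 H3K36me3 with quantile normalization (0.0410). With 1 line left out in turn, where the lone line of an origin is assumed to vary like the others, methylation differences ranged from -0.00210 to 0.132 at Begain, -0.0479 to 0.0264 at Rtl1 and -0.0909 to 0.0414 at Dio3, and the others kept their sign. H3K4me3 differences ranged from -0.29 to 0.33 at Begain, -0.19 to 0.10 at Dlk1 and -0.32 to 0.20 at Dio3. H3K36me3 differences ranged from -0.68 to 0.96 at Begain, -0.998 to 0.57 at Dlk1, -0.66 to 0.47 at Meg3, -0.81 to 0.22 at Rian and -1.01 to 0.49 at Dio3. The cause of these changes was not tested.

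Counts over all genes moved more. Methylation calls, 2 in limma as reported, were 0 with quantile normalization or without centring, 1 without the variance trend, 52 with median centring, 9 on autosomes only, and 0 to 1020 with 1 line left out (1020 without TTF1, 227 without TTF4). H3K4me3 calls, 66 as reported, were 102 with a pseudocount of 0.1, 59 to 108 with 1 line left out, and 0 with quantile normalization, a mean of at least 1 RPKM, missing values at 0 RPKM or no variance trend. H3K36me3 calls, 19 as reported, were 44 with a pseudocount of 0.1, 1 to 31 with 1 line left out, and 0 under those same 4 settings. Percentiles shifted by up to 20.7 when only genes present in every line were ranked and by up to 2.88 when only rows with a symbol were. Of 69, 9 and 0 shifted by more than the SD of that gene's percentile across its lines. No paired analysis was possible because the line numbers of PTC (11 and 12) and TTF (1 and 4) are not shared.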

Other observations

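At every start 1 line lies farthest from the others after the line mean is subtracted. The starts below were picked for large gaps of this kind within the non-coding cluster. How common such gaps are over all genes was not examined. Mir341 and Mir1188, neighbours within Rian 70.5 and 70.8 kb after the Meg3 start, had fractions of 0.277 and 0.258 in PTC11, against 0.733 and 0.800 in PTC12, 0.770 and 0.742 in TTF1, and 0.826 and 0.763 in TTF4. Their windows overlap. The snoRNA locus Gm24564, 90.1 kb after the Meg3 start, had 0.190 in TTF1 against 0.665 in PTC11, 0.647 in PTC12 and 1.00 in TTF4. Gm24899, at 100 kb, had the largest such gap among the 113 loci, with 0.426 in TTF4 against 0.665, 0.741 and 0.578 in PTC11, PTC12 and TTF1. AF357341, at 141 kb, had 1.00 in PTC11 and 0.729 in PTC12, and 0.532 and 0.885 in TTF1 and TTF4. None of these passed the limma test between origins (adjusted p 1.00), and the number of CpGs read behind each value is unknown.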
